A study of Mus musculus with 2 samples.

Results

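Muscle fibres under stretch, injury or disuse switch on a small set of genes, of which 10 were followed here in the injured mouse tibia. They are Ankrd1, Ankrd2, Xirp1, Csrp3, Nes, Mustn1, Atf3, Runx1, Fbxo32 and Trim63, 10 of the 32285 genes in the deposited count matrices, and each was found by its symbol and had unique molecular identifiers (UMIs) in both libraries. The genes were chosen by their measured levels in fibre-rich nuclei and in free RNA at day 1 and in myogenic nuclei at day 5, so those levels are given as a description with no test.

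The study followed how the periosteum and its immune cells respond to bone injury, and 2 of its single-nucleus RNA-seq libraries were used here, of periosteum scraped from the tibia together with haematoma and callus and made with droplet 3′ chemistry on dye-sorted nuclei. The day 1 post-fracture library came from an open tibial fracture left without stabilisation, and the day 5 post-MTI library from musculoskeletal traumatic injury, in which the fracture was combined with crushing of the muscles around the bone by a haemostat. Both were from C57BL6 mice 10 to 14 weeks old with the sexes mixed, and each pooled the injured tibias of 3 or 4 mice. With 1 library per condition there was no replicate, so no p-value is given, every interval is a 95% exact interval that covers counting error only, and the libraries were not compared with each other because day and injury differed together.

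Day 1 held 48987 barcodes with 9389014 UMIs, of which 2405 passed the study's limits on genes, mitochondrial and ribosomal UMIs, with a median of 409 UMIs. The 43464 barcodes with fewer than 200 genes served as the measure of free RNA. At day 5, 1127 of 1446 barcodes passed, with a median of 2364 UMIs. The libraries shared 33 barcode sequences, 15 of which passed the limits in both. Both were labelled periosteum, yet 4.20% of the free UMIs at day 1 lay on 6 muscle fibre genes (Ttn, Neb, Ckm, Myh1, Myh4 and Acta1), and in the nuclei this muscle share ran from 0 to 40.5% with a median of 4.15%.

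Striated muscle reads load at titin and at the Z-disc, where neighbouring sarcomeres join, and several of the genes encode proteins that sit there and also reach the nucleus. Wasting muscle degrades its own filaments through the ubiquitin-proteasome system, with atrogin-1 (Fbxo32) and MuRF1 (Trim63) as the classical muscle ligases under FOXO factors. Atf3 is an immediate stress-response transcription factor of many cell types, and Runx1 a core-binding factor known from blood formation and from denervated muscle.

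The upstream regions of Trim63 and Atf3 are shown as examples of genes that lay in different nuclei at day 5, Trim63 being highest in fibre nuclei and Atf3 in macrophage-like nuclei. Each is the 250 bases before the RefSeq transcription start (build GRCm38.p6), 5′ to 3′ on the gene's strand, with motif matches in capitals. Trim63 lies on chromosome 4 (134315120 to 134329629, plus strand) and its window is chr4:134314870-134315119. Atf3 lies on chromosome 1 (191170296 to 191218039, minus strand), and its window, chr1:191183334-191183583, lies inside that span before the start of a shorter transcript and ends with 7 bases that the GENCODE annotation places in an exon.
Trim63: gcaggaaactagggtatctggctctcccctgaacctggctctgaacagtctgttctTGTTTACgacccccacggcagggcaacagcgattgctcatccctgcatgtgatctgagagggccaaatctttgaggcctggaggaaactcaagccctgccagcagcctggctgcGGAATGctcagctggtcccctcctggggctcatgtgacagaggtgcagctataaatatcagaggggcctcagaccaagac
Atf3: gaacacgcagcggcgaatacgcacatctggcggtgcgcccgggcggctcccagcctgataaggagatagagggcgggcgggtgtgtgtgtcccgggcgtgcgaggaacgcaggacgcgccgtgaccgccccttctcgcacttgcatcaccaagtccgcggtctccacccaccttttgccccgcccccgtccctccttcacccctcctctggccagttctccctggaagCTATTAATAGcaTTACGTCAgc

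In the Trim63 window the capitals mark a FOXO letter match (searched as GTAAACA, read here on the other strand as TGTTTAC) and an MCAT match (CATTCC, the TEAD site, read as GGAATG). In the Atf3 window they mark a MEF2 match followed by a CRE-like match (TTACGTCA, an ATF and CREB site), 10 to 3 bases before the start. Both strands were searched, and the other motifs were CRE (TGACGTCA), RUNX (TGTGGT), AP-1 (TGACTCA or TGAGTCA), E-box (CANNTG, not capitalised) and CArG. No motif shares bases with another in these 2 windows. Of all 32851 windows in the table, 3.17% held the FOXO letters, 12.6% MCAT, 2.92% MEF2 and 0.448% the CRE-like letters. Windows were found for 8 of the 10 genes, and MCAT also lay in the windows of Ankrd1 and Runx1. The GENCODE annotation places all 250 bases of the Ankrd1 window in an exon. A match is only a description of the letters.

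The day 1 nuclei were ordered by muscle share into 4 groups of 601 or 602 nuclei, with shares up to 1.25% in group 1, to 4.15% in group 2, to 7.42% in group 3 and to 40.5% in group 4. Levels are UMIs per 1000000 UMIs of the population (CPM), and a ratio was read where a gene had at least 20 UMIs in both groups together. In group 4, 3 of the 10 genes (Ankrd1, Nes and Fbxo32) stood at least 2-fold above free RNA, where 4.98% of 18079 genes did. The median ratio was 1.52 for the 10 genes and 0.746 for all. In group 3 the count was 7 of 10 against 7.17% of all genes, in group 2 it was 4 of 10 against 11.2%, and in group 1 no gene was 2-fold above free RNA and 3 were 2-fold below it (Ankrd2, Csrp3 and Fbxo32), against 13% of all genes. Because these levels chose the genes, nothing is read from the counts. By value, Nes and Fbxo32 were highest in group 4 and the other genes in group 2 or 3, most of them within counting error. Only for Ankrd1 and Trim63 did the interval of group 3 lie above that of group 4. The group 2 peak of Atf3 rested on a few nuclei.

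**Figure D1:**
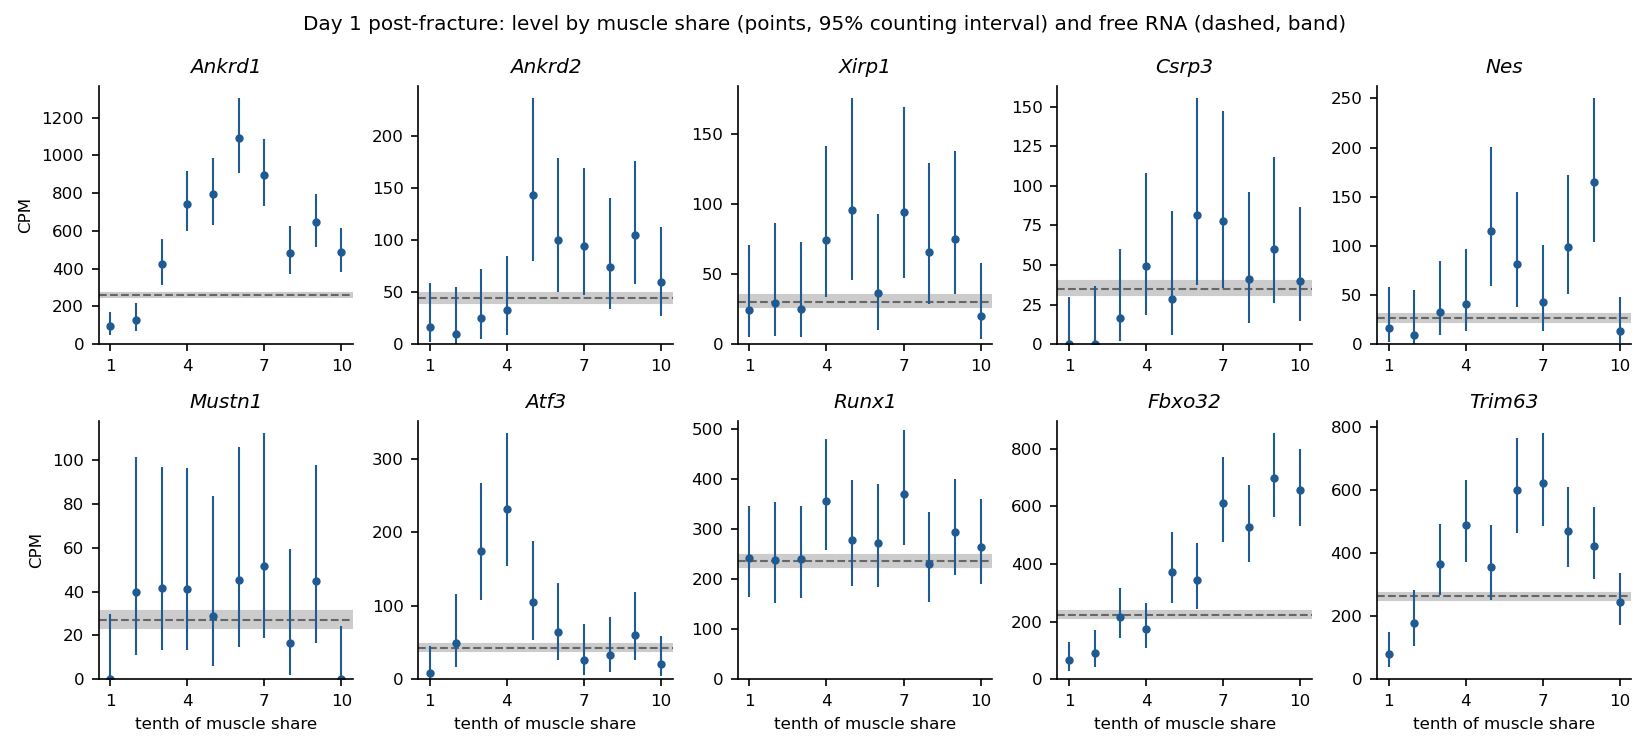
Level (CPM, vertical axis) of each gene in 10 equal groups of day 1 nuclei ordered by muscle share (horizontal axis), with 95% counting intervals, against free RNA (dashed line, with its interval as a band). Ankrd1 peaks at 1091 CPM in group 6 of 10 and Atf3 at 232 CPM in group 4 of 10, while Fbxo32 is highest in the last 2 groups at 699 and 655 CPM.

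Ankrd1, a titin-bound ankyrin repeat protein that also acts as a transcriptional cofactor, read 260 CPM in free RNA (247.8 to 272.1) and 156, 710, 915 and 522 CPM in groups 1 to 4. Group 3 was 3.52 times free RNA (3.08 to 4.01), group 4 was 2.01 times (1.72 to 2.35) and group 1 was 0.602 times (0.436 to 0.811). Only group 1 lay below free RNA, and the intervals of groups 3 and 4 did not overlap. The finer ordering gave the same shape, with 97.1 CPM in the lowest of 10 groups, 1091 in group 6 and 490 in the highest.

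Ankrd2, its relative in the same titin complex and known from slow and stretched fibres, gave 44.1 CPM in free RNA and 21.3, 65.8, 90.5 and 81.3 CPM in groups 1 to 4. Xirp1 encodes Xin, an actin-binding repair protein of damaged fibres, and gave 30.5 CPM in free RNA against 24.9, 72.7, 62.7 and 52.3 CPM. Csrp3 encodes muscle LIM protein of the Z-disc, and gave 35.2 CPM in free RNA against 7.10, 31.2, 73.1 and 46.5 CPM. For all 3 the intervals of groups 2, 3 and 4 overlapped, so an order among those groups could not be read at this depth of 9 to 28 UMIs per group.

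Nes, the intermediate filament protein nestin of regenerating fibres and junctions, read 26.3 CPM in free RNA and 21.3, 62.3, 69.6 and 87.1 CPM in groups 1 to 4. Group 4 was 3.31 times free RNA (2.17 to 4.90), but with 10 groups the highest held 2 UMIs, or 13.2 CPM, and the group below it 22 UMIs, or 165 CPM. The high level in group 4 thus lay below the very top of the muscle gradient. Mustn1, a small nuclear protein of developing and regenerating muscle and skeleton, stayed between 20.3 and 41.8 CPM in the 4 groups, around the 27.0 CPM of free RNA.

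Atf3 did not rise with muscle share. It read 42.8 CPM in free RNA and 74.6, 156, 41.8 and 37.7 CPM in groups 1 to 4, so that group 2 was 3.64 times free RNA (2.60 to 5.00) and group 4 was 0.882 times (0.464 to 1.53). The 45 UMIs of group 2 came from 19 nuclei with at most 15 in any nucleus, and without the 5 nuclei that held most of them the level was 49.0 CPM (26.8 to 82.1). The excess in group 2 thus rested on a few nuclei.

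Runx1 did not follow the muscle gradient at this depth, with 236 CPM in free RNA and 245, 298, 317 and 258 CPM in the 4 groups, and group 4 was 1.09 times free RNA (0.873 to 1.35). The ubiquitin ligases followed it in different ways. Fbxo32 climbed through all 4 groups, from 81.7 CPM (51.8 to 122.6) to 277, 484 and 656 CPM (573.3 to 747.4), with 224 CPM in free RNA. Trim63 reached 592 CPM (506.1 to 687.6) in group 3 and was back at 342 CPM (283.5 to 410.2) in group 4, with 170 CPM in group 1 and 262 in free RNA. The highest of 10 groups held 245 CPM of Trim63 (172.5 to 337.6), not apart from free RNA, and 655 CPM of Fbxo32.

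Between groups 1 and 4, 8 of the 10 genes had the 20 UMIs required for a ratio, and 6 of them were at least 2-fold higher in group 4, against 14.8% of 5101 genes. The ratios ran from 8.03 (5.22 to 12.9) for Fbxo32 through 4.09 for Nes, 3.81 for Ankrd2, 3.34 (2.39 to 4.76) for Ankrd1 and 2.10 for Xirp1 to 2.01 (1.43 to 2.87) for Trim63. The interval of Xirp1 included 1. Atf3 was at a lower level in group 4, at 0.506 times (0.233 to 1.06), and Runx1 stood at 1.05 times. Markers of other cells moved the opposite way, the 6 endothelial genes from 323 to 136 CPM and the 8 macrophage genes from 618 to 340 CPM, and their part in the ratios was not tested. The count of 6 became 3 when 8 other fibre genes ordered the nuclei and 2 when each nucleus was thinned to 300 UMIs, and Nes turned to 0.802 with the other 8 genes.

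Of the lists of related genes, those of ubiquitin ligases, of titin and Z-disc genes and of denervation genes also stood higher in group 4. The nuclei were ordered by fibre genes, and many genes of these lists are muscle genes. A higher level in group 4 was thus largely set by the ordering, and the counts are a description. Of 16 genes of the ubiquitin ligase and FOXO axis, 10 could be read between groups 1 and 4 and 7 were at least 2-fold higher, among them Trim54 at 6.95 times, Acvr2b at 4.63 and Fbxo40 at 4.22. Of 14 titin and Z-disc genes, 9 of the 10 readable were, led by Ankrd23 at 11.1 times, Nrap at 8.67, Ldb3 at 4.70 and Flnc at 4.42. The medians of these lists were 2.60 and 3.04, beside 0.872 for all genes, of which 14.8% were at least 2-fold higher. Of 5 readable denervation genes 3 were at least 2-fold higher, with a list median of 2.125. Ankrd23, the other ankyrin repeat protein of the titin complex, reached 909 CPM in group 4, 4.86 times free RNA (4.28 to 5.50). Foxo3 was the readable gene of the ubiquitin list that stood lowest, at 0.511 times.

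The nuclei that the mitochondrial limit removed share no barcode with those above and give a second reading in the same library. In 3009 such nuclei divided at the same shares, Ankrd1 again peaked below the top, at 117, 704, 504 and 411 CPM. Fbxo32 again climbed throughout, at 119, 271, 391 and 616 CPM. Trim63 read 204, 492, 391 and 411 CPM, and Atf3 50.9, 68.3, 52.1 and 29.3 CPM. Nes read 18.9, 51.8, 43.4 and 29.3 CPM, and its group 4 interval (6.05 to 85.8), on 3 UMIs, included the free RNA level of 26.3 CPM. The climb of Fbxo32 was thus seen in both sets of nuclei. Both sets came from the same library and were ordered by fibre genes, and Fbxo32 is a muscle ligase. Its climb was therefore largely set by the ordering in either set, and the repeat is a description. Ankrd1 peaked below group 4 in both, but in group 3 of the kept and group 2 of the removed nuclei. In the removed nuclei its intervals in groups 3 (416.2 to 604.1) and 4 (296.1 to 555.3) overlapped. The peak of Atf3 in group 2 was smaller in the removed nuclei, with 29 UMIs in 21 nuclei. There Trim63 did not fall from group 3 to group 4, and Nes was not highest in group 4.

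To see which nuclei held the genes, the 2405 nuclei were clustered without the 10 genes among the clustering genes, which gave 11 clusters. The nuclei are shallow, so clusters are called by their leading genes. A cluster of 242 nuclei was led, outside the 10 genes, by the immediate early gene Egr1 with Tnfrsf23, Odc1, Cryab and Xirp2, and is called Egr1-rich. With the 10 genes counted, Atf3 led it and Nes was also among its leading genes. The cluster held 4.52% of its UMIs on the 6 fibre genes, near the 4.20% of free RNA. None of 16 fibre markers was raised in it, although all had UMIs, and their sum of 47508 CPM was near the 45535 CPM of free RNA, while 3 of 11 satellite and myoblast markers and 1 of 8 macrophage markers were raised. Whether its fibre RNA lay in the nuclei or in the droplets cannot be told apart from these levels. A cluster of 293 nuclei led by Smtnl2, Klhl38, Asb2 and Car3, with 10.0% of UMIs on the fibre genes and 14 of 16 fibre markers raised, is called Car3-rich.

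**Figure D2:**
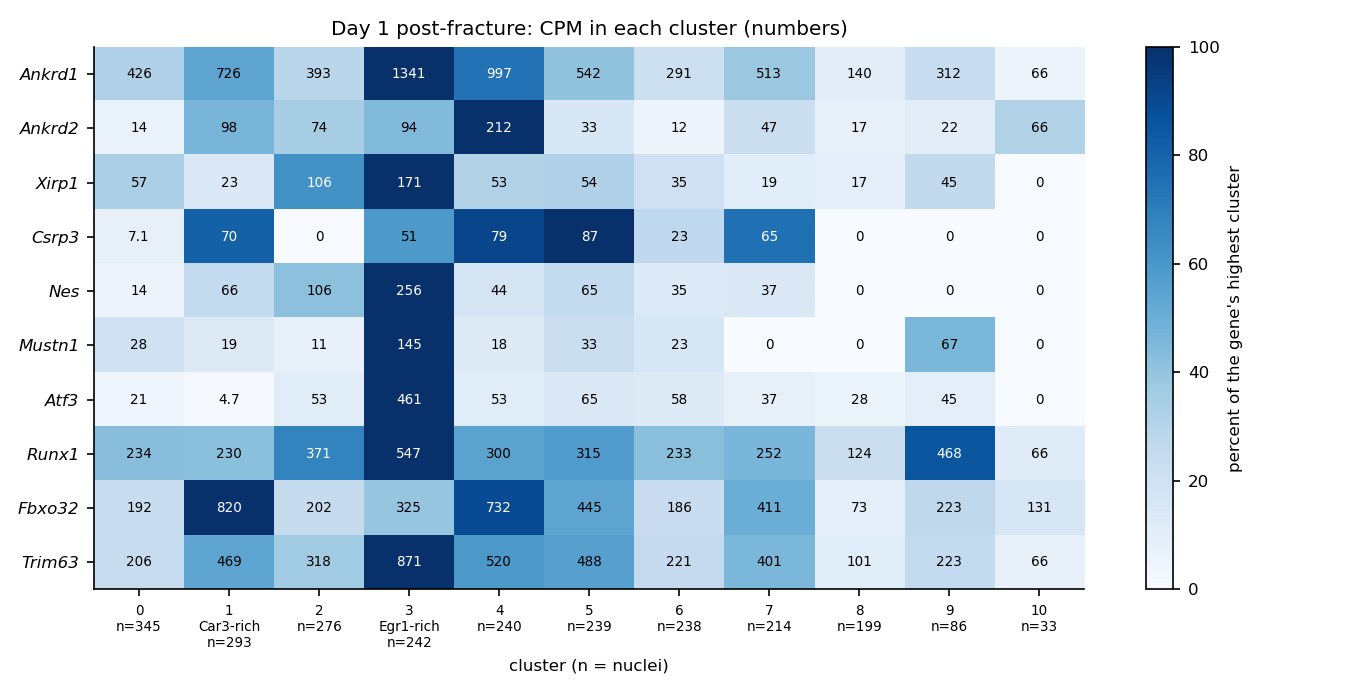
CPM of each gene (rows, numbers in the cells) in the 11 clusters of day 1 nuclei (columns, with their nuclei), coloured by percent of the gene's highest cluster. Of the 10 genes, 7 are darkest in the Egr1-rich cluster, Ankrd1 at 1341 and Atf3 at 461 CPM, while Fbxo32 is darkest in the Car3-rich cluster at 820 CPM.

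Of the 10 genes, 7 had their highest level in the Egr1-rich cluster, a count given without a share of all genes and so not weighed. At least 2-fold above the other nuclei there were 7, against 8.78% of 8419 genes. Atf3 read 461 CPM (346.5 to 601.8) and 34.1 CPM elsewhere, a ratio of 13.5 (8.74 to 21.1). Mustn1 was 8.29 times (4.05 to 16.9) and Nes 6.32 times (3.84 to 10.3) the other nuclei, although Mustn1 had not stood above free RNA in any group by more than counting error. Xirp1 was 4.21 times, Ankrd1 2.72 times (2.26 to 3.26), Trim63 2.67 times (2.12 to 3.34) and Runx1 2.19 times (1.64 to 2.88). Ankrd2 at 1.499, Csrp3 at 1.32 and Fbxo32 at 0.819 times (0.572 to 1.14) were not set apart at this depth. The median ratio was 2.70 for the 10 genes and 0.934 for all, and 8 of 10 stood 2-fold above free RNA, against 12.9% of all genes. Fbxo32 at 1.45 and Csrp3 at 1.46 times were the exceptions. Levels in day 1 nuclei and in free RNA were among the values that chose the genes, and the clustering was added after seeing the data. The counts in this cluster are therefore a description.

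The levels did not rest equally on many nuclei. Atf3 had 54 UMIs in 18 of the 242 nuclei, and without the 5 richest nuclei its level was 123 CPM (67.4 to 206.9). Nes fell from 256 to 115 CPM in the same way, whereas Ankrd1 went from 1341 to 1115 CPM, Runx1 from 547 to 463 and Trim63 from 871 to 670. Of the 74 nuclei with Ankrd1, 27 also held Trim63, which were 45% of the 60 nuclei with Trim63, while 7 held Atf3. Ankrd1 was in 30.6% of all 242 nuclei. Atf3 was in 9.46% of the nuclei with Ankrd1 and in 7.44% of all. The cluster also depended on how finely nuclei were divided, since at a resolution of 1.0 it merged into 580 nuclei and none of the 10 genes peaked there. At a mitochondrial limit of 5%, 4 genes did (Xirp1, Nes, Mustn1 and Atf3).

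The Egr1-rich nuclei lay in the middle of the muscle gradient, with 24, 99, 89 and 30 nuclei in groups 1 to 4, whereas 187 of the 293 Car3-rich nuclei were in group 4 and 0 in group 1. In each of the 4 groups, Ankrd1 was higher inside the Egr1-rich cluster than outside it, at 731 against 130 CPM in group 1, 1316 against 598 in group 2, 1614 against 785 in group 3 and 1089 against 497 in group 4. Outside the cluster Ankrd1 still peaked in group 3, with non-overlapping intervals for groups 3 (677.2 to 904.7) and 4 (424.1 to 579.5). Atf3 outside the cluster read 29.7, 49.2, 28.9 and 30.3 CPM, with no peak beyond counting error. Fbxo32 outside it climbed as before, at 74.3, 258, 521 and 670 CPM.

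Set directly against each other, these 2 clusters split the 10 genes. In the Egr1-rich cluster 5 genes were at least 2-fold higher than in the Car3-rich cluster, against 11% of 2636 genes, and 1 was at least 2-fold lower, against 11.7%. Atf3 had 54 UMIs in the Egr1-rich and 1 in the Car3-rich cluster, a ratio of 98.4 (16.9 to 3958). Mustn1 stood at 7.75, Xirp1 at 7.29, Nes at 3.91 (2.01 to 7.97) and Runx1 at 2.38 (1.62 to 3.53). Ankrd1 at 1.85 (1.47 to 2.32) and Trim63 at 1.86 (1.40 to 2.47) were nearer, and Fbxo32 was on the other side at 0.396 (0.271 to 0.565). Fbxo32 was thus at 820 CPM in the Car3-rich and 325 CPM in the Egr1-rich nuclei, while the ligase Trim63 was at 469 and 871 CPM.

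**Figure D3:**
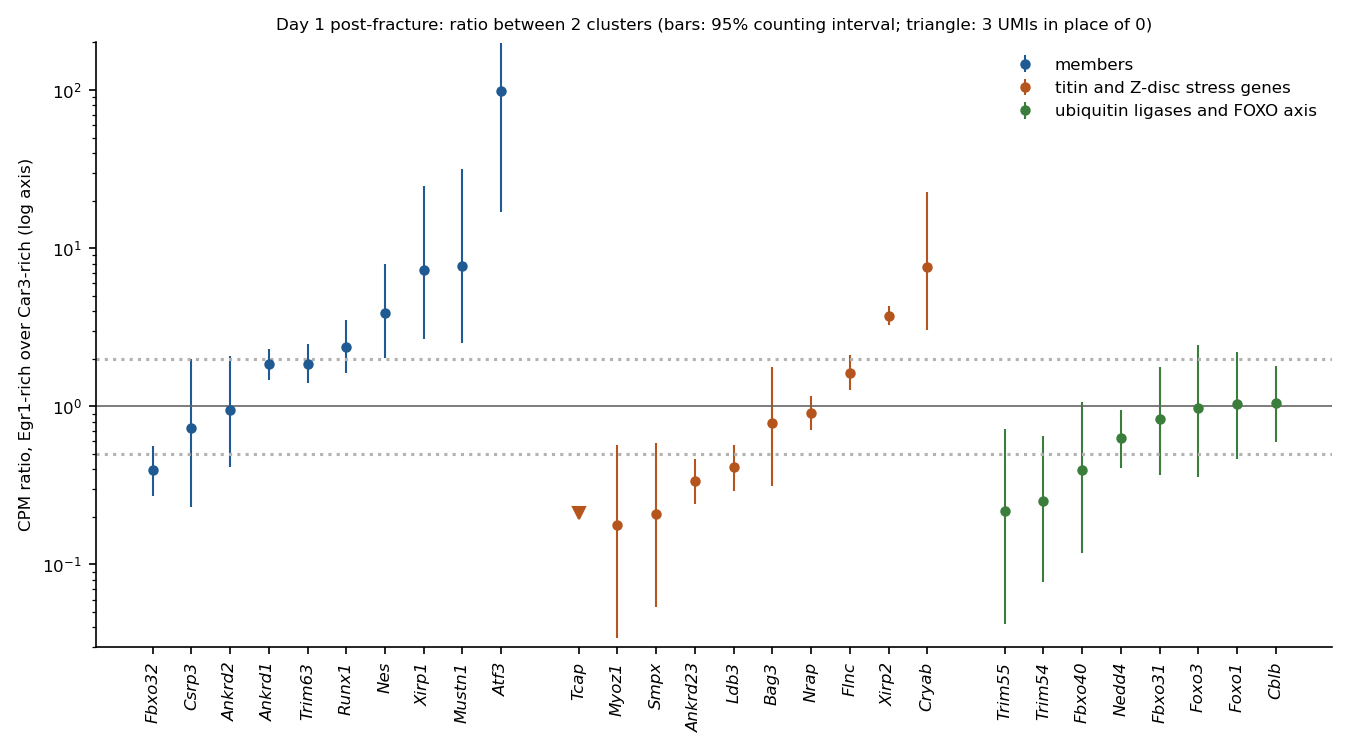
CPM ratio of Egr1-rich over Car3-rich day 1 nuclei (log axis) for the 10 genes and for genes of 2 related lists, with 95% counting intervals, dotted lines at 2-fold and, for Tcap, a triangle that puts 3 UMIs in place of 0. Atf3 at 98.4, whose upper bound runs past the axis, and Cryab at 7.59 are far above 1, and Fbxo32 at 0.396 lies with Trim55 at 0.219 and Trim54 at 0.253.

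The related genes were divided too. Among 9 readable genes of the ubiquitin list 0 were 2-fold higher in the Egr1-rich cluster and 3 were lower, namely Fbxo40 at 0.396 (0.118 to 1.06), Trim54 at 0.253 (0.0775 to 0.647) and Trim55 at 0.219 times (0.0423 to 0.717), the last pair being MuRF3 and MuRF2, the close relatives of Trim63. These rest on 3 to 5 UMIs in the Egr1-rich cluster, and the interval of Fbxo40 includes 1. Among 10 titin and Z-disc genes, 2 were higher and 5 lower. The higher ones were Cryab, a small heat shock protein that guards filaments, at 7.59 times (3.04 to 22.6), and Xirp2, the relative of Xirp1, at 3.74 times (3.26 to 4.28). Both are among the genes that lead the cluster. Among the lower were Myoz1 at 0.176 and Ankrd23 at 0.339 times (0.243 to 0.464). Against the other nuclei, 3 of 7 readable ATF and stress genes were 2-fold higher in the Egr1-rich cluster, against 8.78% of 8419 genes. They were Egr1 by which it is named at 11.6 times, Fos at 2.39 times and Atf4 at 2.24 times (1.36 to 3.57). Fos rested on 8 UMIs, with an interval that includes 1. Of 6 YAP and TEAD targets, 2 could be read, Ccn1 at 7.13 times (2.80 to 17.6) and Lats2 at 1.01 times. Ccn2 and Axl had 0 UMIs in the cluster, against 9 and 17 elsewhere, so the list is not read as raised.

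At day 5 the genes could be read at greater depth and in named cell types. Of 13 clusters, again made without the 10 genes, 1 of 100 nuclei raised all 16 fibre markers (fibre nuclei, median 5530 UMIs), and 1 of 26 nuclei led by Chodl, Dcx and Pax7 raised 10 of 11 satellite and myoblast markers (satellite-like nuclei, median 6764 UMIs). Together they are the 126 myogenic nuclei. Clusters 0 and 3 with 339 nuclei are macrophage-like and cluster 7 with 36 nuclei endothelial-like, by their markers. Fibre nuclei carried 5.16% of UMIs on the 6 fibre genes against 0.0243% in the 1001 other nuclei. Only 27 barcodes had fewer than 200 genes, so free RNA could not be measured as at day 1.

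**Figure D4:**
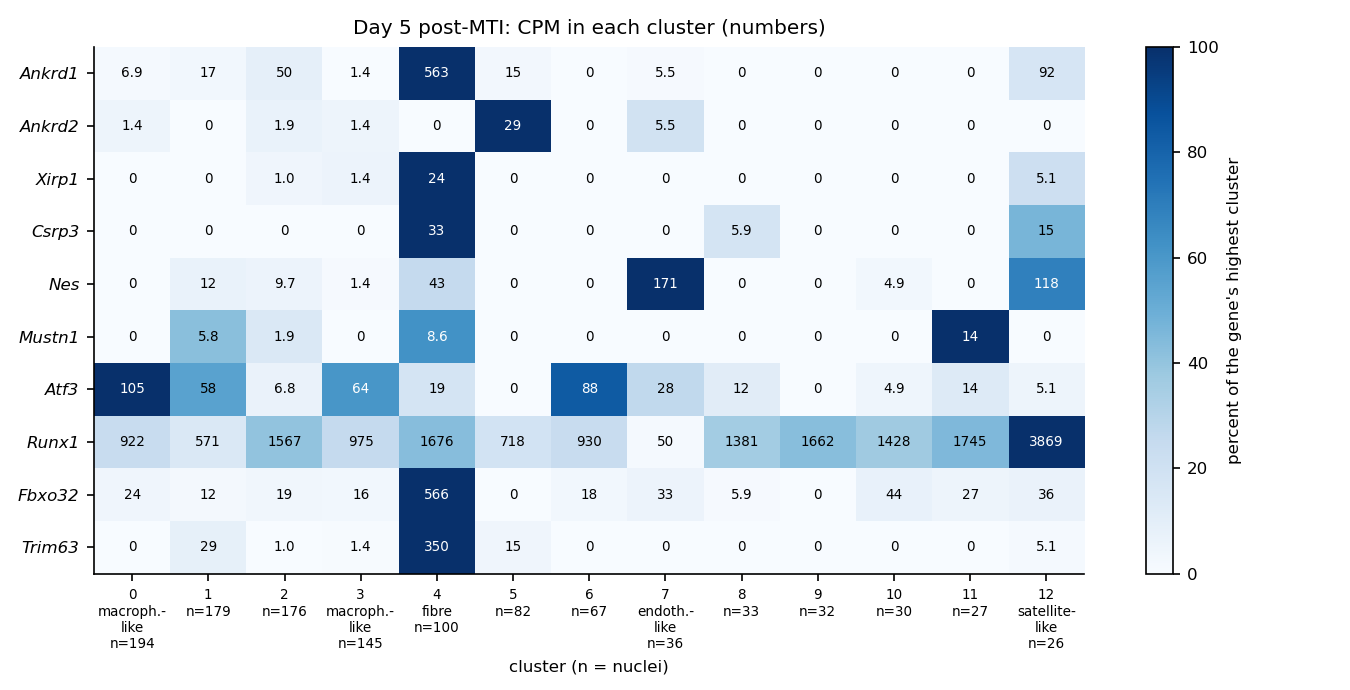
CPM of each gene (rows, numbers in the cells) in the 13 clusters of day 5 nuclei (columns, with their nuclei), coloured by percent of the gene's highest cluster. Ankrd1, Xirp1, Csrp3, Fbxo32 and Trim63 are darkest in the fibre cluster, Runx1 in the satellite-like cluster at 3869 CPM, Nes in the endothelial-like cluster at 171 CPM and Atf3 in a macrophage-like cluster at 105 CPM.

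In myogenic nuclei 6 of the 8 readable genes were at least 2-fold above the other nuclei, against 12.1% of 12746 genes, and 1 was 2-fold below, against 32.2%. The median ratio was 24.0 for the 8 genes and 0.770 for all. The day 5 myogenic level was also among the values by which the genes were chosen, so the count is a description. That level pooled fibre and satellite-like nuclei, and fibre nuclei gave 699338 of the 893975 myogenic UMIs. The fibre level was thus largely part of the choice, and the counts of fibre over satellite-like nuclei are also a description.

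Ankrd1 read 563 CPM (509.1 to 621.9) in fibre nuclei, 92.5 CPM (54.8 to 146.2) in satellite-like nuclei and 18.01 CPM in the others. It had a UMI in 34 of the 100 fibre nuclei and in 4 of the 339 macrophage-like nuclei (median 3691 UMIs), and after thinning to 1000 UMIs in 25.3% of 79 and 0% of 331. The fibre level was 6.09 times the satellite-like level (3.80 to 10.4). Of the 62 UMIs outside muscle, 51 lay in cluster 2, which raised fibroblast and chondrocyte markers, with 28 in a single nucleus. Its level of 49.7 CPM (37.0 to 65.3) overlapped the satellite-like interval. Xirp1 (24.3 CPM) and Csrp3 (32.9 CPM) were also found in fibre nuclei, with 2 and 1 UMIs in all 1001 other nuclei. Ankrd2 had 0 UMIs in the myogenic nuclei, which allows up to 3.36 CPM, and 7 UMIs elsewhere.

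Fbxo32 was at 566 CPM (511.8 to 624.9) in fibre nuclei, 36.0 CPM in satellite-like and 20.0 CPM in other nuclei, and Trim63 at 350 CPM (307.8 to 397.1), 5.14 CPM and 2.32 CPM. Both ligases were thus highest in fibre nuclei at day 5, 15.7 times (7.57 to 39.4) and 68.2 times (12.1 to 2704) the satellite-like level, the latter resting on 1 UMI. Mustn1 had 6 UMIs in fibre nuclei and 4 elsewhere.

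Runx1 and Nes were arranged the opposite way. Runx1 read 3869 CPM (3597 to 4155) in satellite-like nuclei, 1676 CPM (1581 to 1775) in fibre nuclei and 1141 CPM in the others. It was widespread, at 571 to 1745 CPM in the other 10 clusters outside muscle with the exception of the endothelial-like cluster at 49.7 CPM (22.7 to 94.4). Nes read 118 CPM (74.9 to 177.3) in satellite-like, 42.9 CPM (28.9 to 61.2) in fibre and 171 CPM (116.3 to 243.1) in endothelial-like nuclei. The intervals of fibre and endothelial-like nuclei did not overlap, while those of the satellite-like and endothelial-like nuclei did. In the satellite-like nuclei 5 of 26 held 61.6% of the Runx1 UMIs, with 160 in a single nucleus, and 82.6% of the Nes UMIs. After thinning to 1000 UMIs, Runx1 was in 76.9% of 26 satellite-like nuclei (56.4 to 91.0) and 55.7% of 79 fibre nuclei (44.1 to 66.9), and Nes in 0 and 3 nuclei, so these shares did not separate the populations.

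Atf3 was highest in macrophage-like nuclei at day 5 and not high in all clusters outside muscle. It read 105 CPM (82.9 to 131.7) and 63.5 CPM (46.3 to 85.0) in the macrophage-like clusters, 18.6 CPM (9.90 to 31.8) in fibre nuclei and 5.14 CPM in satellite-like nuclei, and its myogenic level was 0.355 times that of the other nuclei (0.189 to 0.614). Of the other clusters outside muscle, 1, 6 and 7 read 58.3, 87.8 and 27.6 CPM. Clusters 2, 8, 10 and 11 read 6.82, 11.8, 4.88 and 13.7 CPM, and 5 and 9 had 0 UMIs. The intervals of all these clusters overlapped that of fibre nuclei. After thinning to 1000 UMIs Atf3 had a UMI in 8.16% of 331 macrophage-like nuclei (5.44 to 11.7) and in 2.53% of 79 fibre nuclei (0.308 to 8.85), so the shares overlapped at this depth. Between fibre and satellite-like nuclei 6 genes were readable, and 4 were 2-fold higher in fibres (Ankrd1, Fbxo32, Trim63 and, with an interval that includes 1, Csrp3) against 17.4% of 6126 genes, while Runx1 at 0.433 times (0.395 to 0.475) and Nes at 0.363 times (0.204 to 0.654) were 2-fold lower, against 21.8%.

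Companions of the genes at day 5 included all 9 readable denervation genes, each at least 2-fold higher in myogenic than in other nuclei. The receptor subunit Chrnd stood at 150 times with 1 UMI elsewhere, the receptor kinase Musk at 87.5 times and Chrng, the embryonic acetylcholine receptor subunit, at 50.1 times. So were 10 of 12 titin and Z-disc genes, from Flnc at 18.5 to Smpx at 264 times, and 7 of 8 regeneration genes, among them the embryonic and neonatal myosins Myh3 at 142 and Myh8 at 230 times. The median ratios were 39.0, 52.7 and 52.0, and Myog is in both the denervation and the regeneration list. Many genes of these lists are muscle genes, so a higher level in muscle than in other cells does not by itself show denervation or regeneration. No uninjured muscle was measured here. The list of ATF and stress genes had 2 of 10 higher, Gadd45a at 7.51 and Cdkn1a at 2.20 times, and 2 lower, Fos at 0.0822 and Sesn2 at 0.157 times, while 12.1% of all genes were 2-fold higher and 32.2% lower, so nothing is read from these counts. Of 4 other genes of a core-binding factor list 0 were 2-fold higher and 3 were lower (Runx2 at 0.234, Runx1t1 at 0.224 and Runx3 at 0.107 times), while Runx1 itself stood at 1.89 times (1.79 to 1.99). The remaining gene, Cbfb, was not 2-fold apart there, but it was the 1 gene of the list at least 2-fold higher in fibre nuclei alone than in other nuclei.

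Fibre nuclei themselves were of several kinds. At a finer resolution, chosen after seeing the data, the 100 nuclei fell into 3 clusters. The cluster of 43 nuclei (374505 UMIs, median 8116) was led by Hs3st5, Fbxo40, Car3 and Mylk4, and the cluster of 27 nuclei (289831 UMIs, median 11087) by Myh8, Tecrl, Sim1 and Myh3. Myh8 had 0 UMIs in the former, which allows up to 8.01 CPM, and 1836 CPM in the latter, so they are called Fbxo40-rich and Myh8-rich. Fibre markers summed to 59185 and 61981 CPM. The median mitochondrial share was 0.0620% in Fbxo40-rich and 0.430% in Myh8-rich nuclei, and its part in the differences between them was not tested. The remaining 30 nuclei were shallow (median 743 UMIs), and their 14 Nes UMIs came from 2 nuclei.

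**Figure D5:**
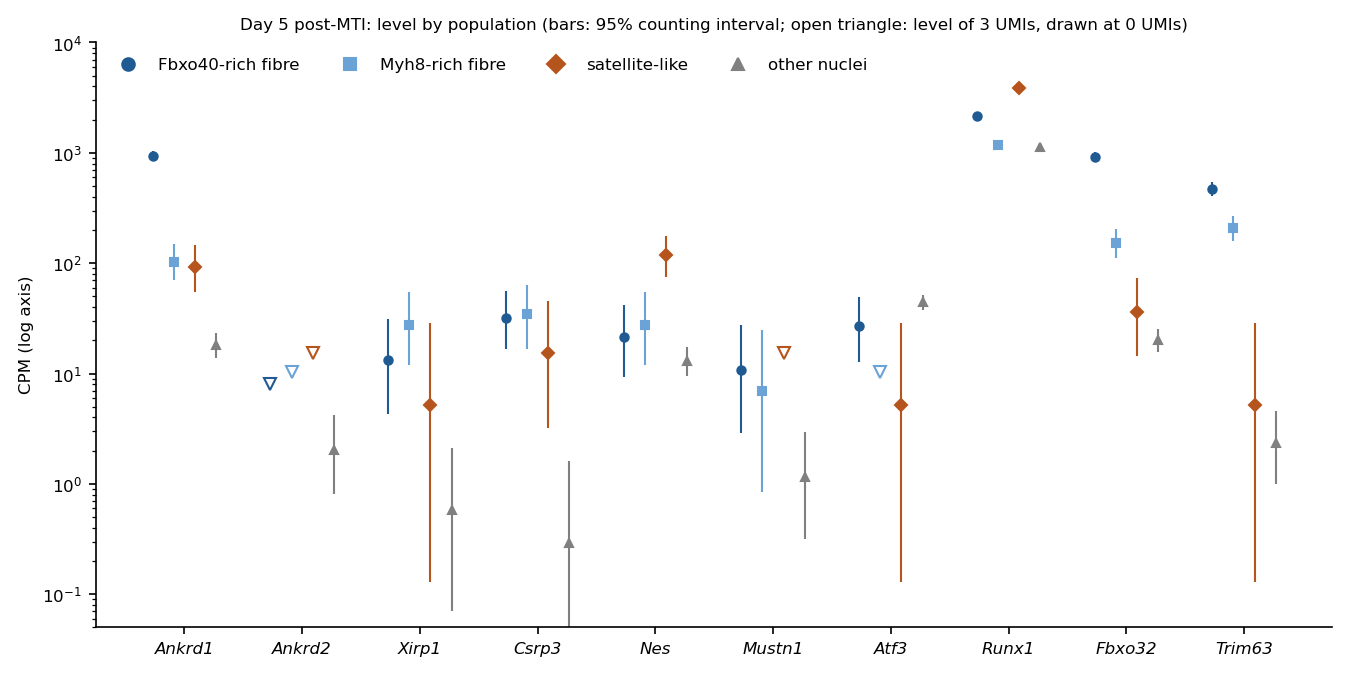
Level (CPM, log axis) of each gene in 4 populations of day 5 nuclei with 95% counting intervals, where an open triangle marks the level of 3 UMIs for a gene at 0 UMIs. Ankrd1 and Fbxo32 stand at 943 and 913 CPM in Fbxo40-rich fibre nuclei and at 104 and 152 CPM in Myh8-rich ones, and Runx1 is highest in satellite-like nuclei at 3869 CPM.

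Levels of the 10 genes differed between these kinds of fibre nuclei. Ankrd1 read 943 CPM in Fbxo40-rich and 104 CPM in Myh8-rich nuclei, 9.11 times (6.27 to 13.7), and Fbxo32 read 913 and 152 CPM, 6.02 times (4.39 to 8.43). Trim63 at 470 and 207 CPM differed by 2.27 times (1.69 to 3.10), and Runx1 at 2139 and 1183 CPM by 1.81 times (1.59 to 2.06). Of 5 readable genes 3 were thus at least 2-fold higher, against 12.4% of 4785 genes. Atf3 had 10 UMIs in the Fbxo40-rich and 0 in the Myh8-rich nuclei, but 5 nuclei held 9 of the 10, and after thinning to 1000 UMIs it was in 0 of 43 and 0 of 27 nuclei, so no fold is given. The 8 macrophage markers summed to 179 CPM in Fbxo40-rich and 34.5 CPM in Myh8-rich nuclei, and their part in the Atf3 difference was not tested. Csrp3, at 0.929 times (0.368 to 2.40), showed no difference beyond counting error.

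A few nuclei weighed heavily here as well. The 5 richest of the 43 nuclei held 63.2% of the Ankrd1 UMIs, with up to 78 in a single nucleus, and without them the level was 420.0 CPM (350.9 to 498.7), still above the Myh8-rich level. Fbxo32 was 635 CPM without its 5 richest, and Trim63 was then 229 CPM (178.9 to 287.9). All Myh8-rich nuclei held 207 CPM of Trim63 (158.0 to 266.5). The richest nuclei were left out on the Fbxo40-rich side only. The 5 richest held 59.1% of the Trim63 UMIs in Fbxo40-rich and 58.3% in Myh8-rich nuclei. This removal therefore cannot tell whether the Trim63 difference rested on a few nuclei. After thinning to 1000 UMIs Runx1 turned to 0.972 times and Trim63 was at 1.26 times, while Ankrd1 was at 5.65 times. Ankrd1 was in 23 of the 43 nuclei, and each of those also held Runx1, 17 held Fbxo32 and 15 held Trim63. Of all 43 nuclei, 35 held Runx1, 33 Fbxo32 and 26 Trim63. Fbxo32 was thus in 73.9% of the nuclei with Ankrd1 and 76.7% of all, and Trim63 in 65.2% and 60.5%. These shares do not set the nuclei with Ankrd1 apart.

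The companions divided in their own way. Fbxo40 by which the cluster is named stood at 10.7 times, Trim54 at 2.52 and Ankrd23 at 3.81 times, while Trim55 was lower at 0.266 times (0.191 to 0.366). Musk at 3.42 and Hdac4 at 3.07 times were higher in Fbxo40-rich nuclei, and Ncam1 at 0.375 and Chrnb1 at 0.426 times were higher in Myh8-rich nuclei, so the denervation genes did not move as a block. Of 9 readable denervation genes 4 were at least 2-fold higher in Fbxo40-rich nuclei and 2 were lower. The ubiquitin list had 3 of 11 higher and 1 lower, and the titin list 2 of 10 higher and 0 lower. Of all 4785 genes 12.4% were higher and 13.5% lower. Cdkn1a, a cell-cycle inhibitor of differentiating muscle, had 1 UMI in Fbxo40-rich and 22 in Myh8-rich nuclei.

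Over the 13 day 5 clusters, the genes whose level was most like that of Ankrd1 among 9545 genes were Sema6c (Pearson r = 0.954 of log2 CPM with 10 added), Eda2r, Flnc, Obsl1 and Jph2. For Fbxo32 they were Filip1l (r = 0.918), Mir133a-1hg, C2cd2, Kif1b and Myh8, and for Atf3 they were Gm46401 (r = 0.838), Prdx1, Pparg, Mmp12 and Socs6. The 13 points come from 1 library and differ in depth, and the correlations describe only which clusters share a high level. Flnc, the filamin of the Z-disc, is in the titin list and was also 2.63 times higher in the Egr1-rich day 1 nuclei.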

How the data were processed

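Single-nucleus RNA-seq was measured in 1 library at day 1 post-fracture and 1 at day 5 post-MTI. The authors made the deposited counts, which are UMIs per gene and barcode, with Cell Ranger 7.0.1 per the file headers, from exonic and intronic reads on mm10 per the submitters' processing notes. The protocol text names a human reference, but every gene identifier is a mouse one. The study set aside myogenic nuclei as contamination, and they were kept here.

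Nuclei had 200 to 5000 genes, with under 0.5% mitochondrial and 2.5% ribosomal UMIs at day 1 and under 5% and 2% at day 5, as in the study's methods. Seurat 5.3.0 (R 4.3.3) clustered them on 2000 variable genes without the 10 genes, with 20 principal components and resolution 1.7 at day 1 (cell cycle, mitochondrial and ribosomal content regressed out) and 30 and 1 at day 5 (resolution 3 for the finer clusters). A marker was raised at 1.5 times the other nuclei and 3 UMIs. Scrublet in scanpy 1.11.5 marked 3 of 5523 and 0 of 1398 barcodes as doublets, too few to have worked, and all were kept.

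UMIs were summed per population in Python 3.11.15 (numpy 2.4.6, scipy 1.17.1, pandas 2.3.3). CPM have exact Poisson, ratios exact conditional binomial and shares exact Clopper-Pearson 95% intervals, all covering counting error only. A gene was counted at 2-fold or more with at least 20 UMIs in both groups together, and 0 UMIs were read as up to 3. All 10 genes are given, and each related list (7 lists, 75 entries) by counts and at most 4 of its highest or lowest ratios. The 10 genes and the lists were chosen with earlier results of these data known. The day 1 clustering, the finer day 5 clusters and the removal of the 5 richest nuclei were added after seeing the data. Some genes of the related lists enter the counts but are not reported here by name.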

Additional observations from a re-analysis of the deposited data

How the results depend on the processing

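With 1 library per condition the spread between animals was not measured, and day 1 nuclei held a median of 409 UMIs, which limits the order of genes with few UMIs. No paired analysis was possible because each condition has 1 library. Of 295 ratios of the 10 genes under alternatives, 241 kept their direction within the counting interval, 49 moved beyond it and 5 reversed. None of the reversals is read as beyond counting error.

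Against free RNA, 3 genes were 2-fold higher in group 4. The count was 1 with 10 groups in place of 4, 5 at a fold of 1.5, 1 at a fold of 3 and 5 with free RNA from barcodes under 100 genes. With 10 groups Nes turned to 0.504, on 2 UMIs, and Trim63 to 0.936. The intervals of both levels (1.60 to 47.8 and 172.5 to 337.6 CPM) included the free RNA level. Against group 1 the count was 6, and it was 3 with at least 500 genes and 3 when 8 other fibre genes ordered the nuclei (Nes 0.802). It was 3 with 10 groups (Nes 0.818, on 2 UMIs against 2) and 2 when thinned to 300 UMIs. Of the 10 genes, 7 were highest in the Egr1-rich cluster, but 0 at a resolution of 1.0 and 4 at a mitochondrial limit of 5%. Thinned to 1000 UMIs, Runx1 between Fbxo40-rich and Myh8-rich nuclei reversed to 0.972. The causes were not tested. Fibre and satellite-like nuclei could not be compared at a mitochondrial limit of 0.5%, where 0 satellite-like clusters were found.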
